A study of Mus musculus with 11 samples.

Results

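Hematopoietic stem cells (HSCs) of adult bone marrow were set against HSCs of the fetal liver, to ask how the transcriptome of a blood stem cell differs between the adult marrow and the growing fetus. Genes entered the comparison when they reached at least 1 FPKM (fragments per kilobase of a transcript, scaled to the mapped reads of the library) in at least 2 of the 4 libraries, and 12594 of the 37820 genes in the table did so. The groups were 2 libraries of BM HSCs, from mice aged 6 to 8 weeks, and 2 libraries of FL HSCs, from E14.5 fetuses. BM HSCs came from the long bones of mice of both sexes, of the hybrids B6C3F1/J and B6129SF1/J, were enriched on CD117 beads, and were sorted as lineage-negative, Sca1-positive, c-Kit-positive and CD150-positive cells. The study's methods further give CD48 and CD135 as absent from the sorted BM cells, while its supplement names CD34 in their place. FL HSCs came from fetuses of B6C3F1/J females and B6129SF1/J males and carried the same surface phenotype with CD48 absent. None of these mice carried an engineered allele by the methods, and tissue of several animals was pooled. The sample labels name B6129SF1 for every library. Strain, pooling, sort gate and stage thus cannot be told apart. The other 7 libraries of the series, 2 of endothelial cells without Runx1:GFP (Endo), 2 of hemogenic endothelium (HE) and 3 of pre-HSCs, all from reporter mouse embryos at E10.5 by their labels, although the methods give a later day for pre-HSCs, entered the fit to estimate the spread and are otherwise given only where they place a gene in development.

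HSCs expand in the fetal liver by frequent division, and after birth most of them settle in the marrow and become quiescent. Fetal HSCs are known for a set of RNA-binding proteins and chromatin proteins that the microRNA let-7 restrains in later life, and for imprinted growth genes expressed from 1 parental allele. Adult HSCs are known for surface antigen presentation, for a subset primed toward the platelet lineage, and for transcription factors and cell cycle inhibitors that hold them out of division.

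RNA was poly(A)-selected and sequenced, the authors deposited FPKM per gene and library, and the number of reads behind a value is unknown. A gene was called when limma, fitted on log2(FPKM + 1) over all 11 libraries and 14708 genes, gave an adjusted p under 0.05 for BM minus FL HSCs with at least a 2-fold change and an adjusted p under 0.01 in the F test over the 5 populations. Log2 fold changes below are on that scale and understate the change of genes at low FPKM, a positive value means higher in BM HSCs, and SE is the standard error. In total 1461 genes were called, 11.6% of the members, with 880 higher in BM HSCs (6.99%) and 581 lower (4.61%). The median log2 fold change of all members was 0.034, and these values are the background for each gene group below. In none of the called genes did the libraries of the groups overlap, which the call nearly fixes. At least a 4-fold change was reached by 165 of the genes called higher and 152 of those called lower. Among the 10950 genes at or above 1 FPKM in all 4 libraries 595 were called higher and 373 lower. A further 379 genes passed the filter only through both BM libraries, with 187 called, and 282 only through both FL libraries, with 159 called. These had to differ by the way they passed. The same holds for each gene named below that is under 1 FPKM in both libraries of either group. For such genes the SE and adjusted p add no support.

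**Figure D1:**
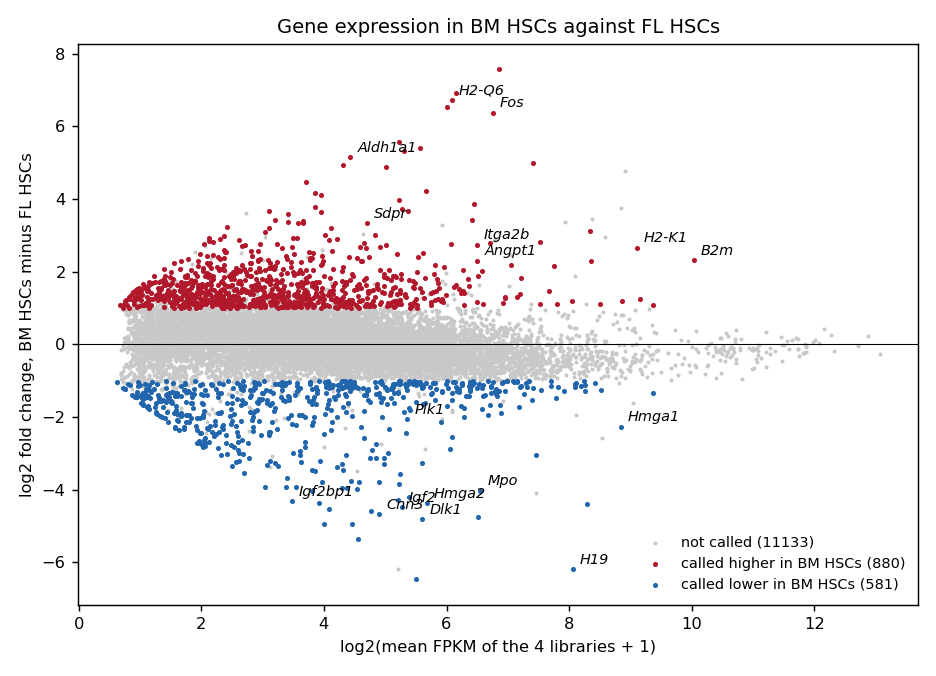
Log2 fold change of BM HSCs minus FL HSCs (vertical axis) against the log2 of the mean FPKM plus 1 of the 4 libraries (horizontal axis) for 12594 genes, with 1 point per gene. Genes called higher in BM HSCs are red (880) and genes called lower are blue (581), and named genes such as H19 at -6.20 and H2-Q6 at 6.74 lie far from 0.

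The number of calls depended on single libraries. Without FL HSC replicate 1, 617 genes were called higher and 346 lower, and without FL HSC replicate 2, 1181 and 782. Leaving out BM HSC replicate 1 gave 584 and 491, and leaving out BM HSC replicate 2 gave 644 and 575. A fit of the 4 libraries alone called 0 genes, where 929 genes were higher and 620 lower past both a 2-fold change and an unadjusted p of 0.05. In the fit of all libraries these unadjusted counts were 1099 and 690. Scaling the FPKM to equal totals raised all log2 fold changes by a median of 0.12, so that relative to it 0 becomes 0.12, and 1003 genes were then called higher and 451 lower. At least 1 FPKM was reached by 12485 and 12272 genes in BM HSCs, against 11984 and 12237 in FL HSCs. The Pearson correlation of log2(FPKM + 1) over genes was 0.962 between the BM libraries, 0.96 between the FL libraries and 0.899 to 0.929 between the groups, and genes are not independent replicates.

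A pair of libraries stood apart from their partners before any comparison of groups. The summed FPKM of 14 macrophage markers was 14 and 13.9 in BM HSCs, against 522.6 in FL HSC replicate 1 and 77.2 in replicate 2. C1qb, a subunit of complement C1q made by macrophages, was at 1.74 and 1.34 FPKM in BM HSCs, against 101 and 10.9 FPKM in FL HSCs. Both FL libraries were above both BM libraries, and the call (-3.78) was lost without FL HSC replicate 1 (-2.23, adjusted p = 0.142) or either BM library (adjusted p = 0.0778 and 0.0797). Of the 12 macrophage markers that were members 7 were called lower in BM HSCs, and 1 without FL HSC replicate 1, 10 without FL HSC replicate 2 and 2 without either BM library. Of the 3 macrophage markers at or above 1 FPKM in all 4 libraries 1 was called lower. The summed FPKM of 16 hepatocyte markers was 22.2 and 26.2 in BM HSCs, against 182.5 and 108.9 in FL HSCs. Of these markers Dlk1 is also a gene of the fetal program. Without it the sums were 20 and 23.7 in BM HSCs, against 81.7 in FL HSC replicate 1 and 24.5 in replicate 2. Replicate 1 thus stood far above both BM libraries and replicate 2 barely above them. Alb, the defining hepatocyte transcript, was at 0.0135 and 0.026 FPKM in BM HSCs, against 10.8 and 2.7 FPKM in FL HSCs, and its call (-2.69) was lost without FL HSC replicate 1 (-1.86) and, by the F test, without either BM library. The 15 endothelial markers summed to 218.5 and 221.2 in BM HSCs and to 357.6 and 393.2 in FL HSCs. Of the 12 that were members 4 were called lower and 0 higher, with 9 negative and 3 positive log2 fold changes. Of the 7 at or above 1 FPKM in all 4 libraries 2 were called lower. Cdh5, the endothelial cadherin, was at 0.0257 and 0.0124 FPKM in BM HSCs, against 11.2 and 4.78 FPKM in FL HSCs. It was called lower (-3.04) and passed the filter only through the FL libraries. Sums for B cells were 17.6 and 22.4 in BM HSCs, against 27.0 and 22.3 in FL HSCs. Those for stroma were 14.9 and 20.1 in BM HSCs, against 17.0 and 20.1 in FL HSCs, and neither list set the groups apart. Markers of T and NK cells summed to 27.2 and 46.5 in BM HSCs, against 15.1 and 8.61 in FL HSCs. Nkg7, a granule protein of NK cells, was at 20 and 41.1 FPKM in BM HSCs and 9.85 and 3.94 FPKM in FL HSCs, and its call (2.02) was lost without BM HSC replicate 2 (1.52). Mast cell and basophil markers summed to 169.6 and 183.9 in BM HSCs, against 89.6 and 79.5 in FL HSCs, and most of that was Gata2, which HSCs also express and which was called higher. Without Gata2 the sums were 1.59 and 3.22 in BM HSCs, against 13.2 and 13 in FL HSCs, and the mast cell enzymes Hdc, Tpsb2 and Cma1 were called lower at -2.30, -1.45 and -1.22. Of the 2 members of this list at or above 1 FPKM in all 4 libraries 0 were called lower, and Cpa3 was not called. Tpsb2 and Cma1 could not be fitted without either FL library. Immediate early genes summed to 2581 in BM HSC replicate 1 and 677.3 in replicate 2, against 378.2 and 345.4 in FL HSCs. Among sex-linked genes Xist was at 75.9 and 61.5 FPKM in BM HSCs and 20.1 and 37.8 FPKM in FL HSCs and was called (1.28), but not without FL HSC replicate 1 (0.84) or BM HSC replicate 1 (adjusted p = 0.0551). The Y-linked Eif2s3y was at 49 and 25.8 FPKM in BM HSCs and 3.38 and 30.3 FPKM in FL HSCs and was not called, so that FL HSC replicate 1 was low in both. In bulk RNA, fewer cells of a type and less RNA per cell cannot be told apart, and the part of other cells in the results was not tested.

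**Figure D2:**
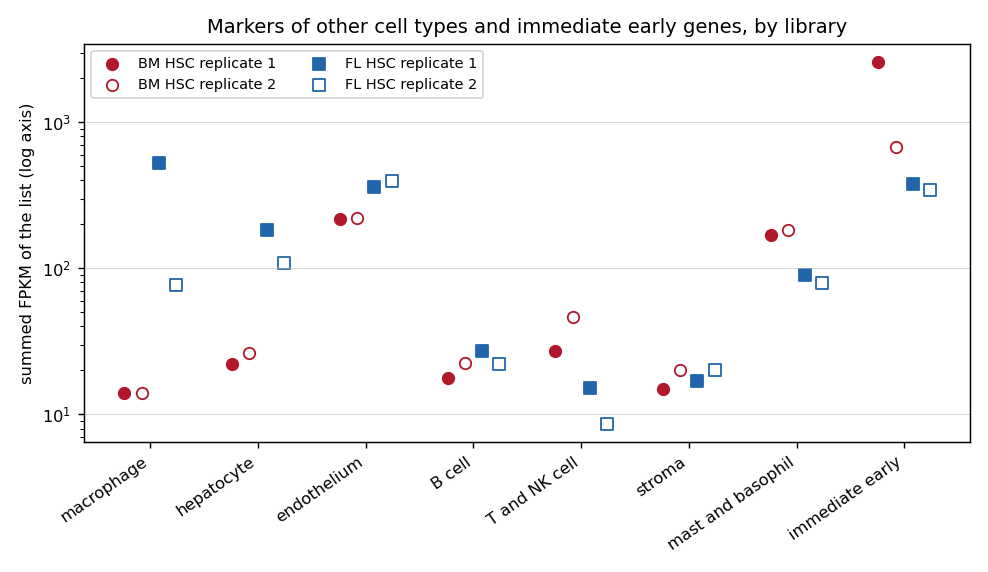
Summed FPKM (vertical log axis) of marker lists of other cell types and of immediate early genes (horizontal axis), with 1 point per library, BM HSCs as red circles and FL HSCs as blue squares, replicate 1 filled and replicate 2 open. FL HSC replicate 1 stands high for macrophage markers (522.6) and BM HSC replicate 1 for immediate early genes (2581).

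The HSC label was checked against 9 genes of HSCs. Slamf1, which encodes CD150, was at 31.8 and 29.4 FPKM in BM HSCs, against 13 and 16.8 FPKM in FL HSCs. Both BM libraries were above both FL libraries, at a log2 fold change of 1.0 (SE 0.23, adjusted p = 0.0145), and the call was lost without FL HSC replicate 1 (0.83), BM HSC replicate 1 (0.94) or BM HSC replicate 2 (adjusted p = 0.0508). Ly6a, which encodes Sca1, was at 32.3 and 43.2 FPKM in BM HSCs, against 3.9 and 9.99 FPKM in FL HSCs, a log2 fold change of 2.39 (SE 0.41, adjusted p = 0.00333) that was 1.80 without FL HSC replicate 1 and 2.97 without FL HSC replicate 2. Kit was at 195 and 182 FPKM in BM HSCs, against 104 and 129.96 FPKM in FL HSCs and was not called, at 0.69. Meis1, a homeobox protein that maintains HSCs, rose in BM HSCs (173 and 177 FPKM in BM HSCs and 56.9 and 85.2 FPKM in FL HSCs, log2 fold change 1.31, adjusted p = 0.0055). The transcription factors Mecom, Hlf and Mllt3 were at 41.2 and 40.1 FPKM in BM HSCs and 24.5 and 52.3 FPKM in FL HSCs, at 102 and 104 FPKM in BM HSCs and 58.1 and 91.7 FPKM in FL HSCs and at 76.2 and 74.6 FPKM in BM HSCs and 43.9 and 71.6 FPKM in FL HSCs. The surface receptor Procr was at 42.9 and 39.2 FPKM in BM HSCs and 43.1 and 64.9 FPKM in FL HSCs, and Fgd5, a mark of HSCs in reporter mice, at 13.1 and 15.7 FPKM in BM HSCs and 17.3 and 26.3 FPKM in FL HSCs. None of these 5 was called, and all were clearly detected in each library. Kit passed the 2-fold limit with quantile normalization, at 1.06. The sort of FL HSCs excluded CD48. That of BM HSCs excluded CD48 and CD135, which Flt3 encodes, by the methods, or CD34 by the supplement. The gates thus differed between the groups, and their part in the values of these genes was not tested. Cd48 was at 5.01 and 7.72 FPKM in BM HSCs, against 35.9 and 16.6 FPKM in FL HSCs. It was called lower (-1.81, adjusted p = 0.0122), but not without FL HSC replicate 1 (-1.28) or BM HSC replicate 1 (-1.54). Flt3 (13.3 and 10.7 FPKM in BM HSCs and 16.8 and 23.3 FPKM in FL HSCs) and Cd34 (80.6 and 86 FPKM in BM HSCs and 125 and 116 FPKM in FL HSCs) were not called.

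The fetal program fell as a group in BM HSCs. Of 25 genes listed as characteristic of fetal HSCs or fetal growth 19 were members, and 14 of these were called lower and 0 higher, with a median log2 fold change of -2.27. Of the 12 that were at or above 1 FPKM in all 4 libraries 8 were called lower, and the other 7 passed the filter in part through the group where they were high. Between 13 and 14 genes of the list were called lower without any 1 of the 4 libraries. H19, an imprinted noncoding RNA expressed from the maternal allele, was at 6.59 and 5.64 FPKM in BM HSCs, against 448 and 602 FPKM in FL HSCs. The groups were far apart, at a 85.9-fold lower mean in BM HSCs (log2 fold change -6.20, SE 0.19, adjusted p = 2.77e-07). Igf2, its imprinted neighbor that encodes a fetal growth factor, was at 1.89 and 2.58 FPKM in BM HSCs, against 56.5 and 89 FPKM in FL HSCs (log2 fold change -4.48, SE 0.21, adjusted p = 1.89e-06). Both genes lie next to each other on chromosome 7 of mm9, H19 at chr7:149761434-149764048 and Igf2 at chr7:149836673-149852721. Dlk1, a paternally expressed Notch-like surface protein that hepatoblasts also make, was at 2.19 and 2.46 FPKM in BM HSCs, against 101 and 84.4 FPKM in FL HSCs (log2 fold change -4.81), and both FL libraries were high. Mest, Plagl1, Grb10 and Snrpn brought the number of imprinted genes called lower to 7 of 21 members, and 1, Phlda2, was called higher. Of the 16 at or above 1 FPKM in all 4 libraries 5 were called lower. Mest, a paternally expressed hydrolase-like protein, was at 0.958 and 0.172 FPKM in BM HSCs and 11.9 and 3.18 FPKM in FL HSCs, and its change of -2.28 was -1.46 without FL HSC replicate 1 and -3.09 without FL HSC replicate 2. Of the members not called, Cdkn1c, an imprinted cell cycle inhibitor, was at 20.1 and 21.1 FPKM in BM HSCs and 37.2 and 35.1 FPKM in FL HSCs. Bcl11a, a repressor of fetal globin, was at 55.7 and 60.7 FPKM in BM HSCs and 66.7 and 75.2 FPKM in FL HSCs.

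Lin28b blocks the maturation of let-7, and in turn let-7 represses mRNAs whose 3′UTR pairs with its seed. Hmga2, a chromatin protein of fetal HSC self-renewal, was at 3.95 and 3.31 FPKM in BM HSCs, against 81.5 and 111 FPKM in FL HSCs (log2 fold change -4.38, SE 0.19, adjusted p = 1.75e-06). Igf2bp1, which binds and stabilizes fetal mRNAs, was at 0.0542 and 0.0692 FPKM in BM HSCs, against 20.7 and 19.6 FPKM in FL HSCs (log2 fold change -4.32, SE 0.17, adjusted p = 1.11e-06). It was thus close to 0 in both BM libraries and moderate in both FL libraries. Its paralog Igf2bp3 was at 0.405 and 0.471 FPKM in BM HSCs and 21.6 and 20 FPKM in FL HSCs (-3.92). Igf2bp2, another, was at 7.65 and 5.08 FPKM in BM HSCs and 39.8 and 44.2 FPKM in FL HSCs (-2.57), so that it alone of the 3 paralogs stayed above 1 FPKM in BM HSCs. Lin28b itself was at 0.629 and 0.16 FPKM in BM HSCs and 6.7 and 12.6 FPKM in FL HSCs (log2 fold change -2.90, SE 0.29, adjusted p = 0.00024). Hmga1, the relative of Hmga2, fell at 140.1 and 173 FPKM in BM HSCs and 819 and 695 FPKM in FL HSCs (-2.27). Arid3a, a DNA-binding factor, fell at 6.34 and 5.16 FPKM in BM HSCs and 23.4 and 26 FPKM in FL HSCs (-1.93). Igf2bp2, Igf2bp3, Lin28b, Hmga1 and Arid3a were chosen after their values were seen.

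The sequences below show the let-7 seed and the letters that pair with it in mRNAs that fell. Mature let-7 is credited to RefSeq (GRCm38.p6), with the seed, bases 2 to 8, in capitals, and members a, b and g of the family share it.
mmu-let-7a-5p: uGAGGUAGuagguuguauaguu
mmu-let-7b-5p: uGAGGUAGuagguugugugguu
mmu-let-7g-5p: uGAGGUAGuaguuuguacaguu
The target stretches are the first match in the longest annotated 3′UTR of each gene, from GENCODE M1 on mm9, minus strand, with the complement of the seed, CTACCTC, in capitals. They lie at chr10:119801281-119801310 for Hmga2, chr11:95823093-95823122 for Igf2bp1, chr6:49036787-49036816 for Igf2bp3 and chr10:45100829-45100858 for Lin28b.
Hmga2: tagggggcgccgacattcaatttCTACCTC
Igf2bp1: caggcagtgctgtgcgaagtaaaCTACCTC
Igf2bp3: attaaacgtgcatttttactcaaCTACCTC
Lin28b: ttcccttcacccgggcgggaagtCTACCTC
Hmga2, Igf2bp1 and Lin28b each carried 4 such matches, and they were the only 3 called genes among 9 members with 4 or more. Of the 13 genes of the fetal program that were called lower and had a 3′UTR 7 carried at least 1 match. Over all genes the share was similar in each class, with a match in 62 of 532 genes called lower (11.7%), 87 of 792 called higher (11%) and 1188 of 11354 members with a 3′UTR (10.5%). The median length of these 3′UTRs was 788, 1260 and 1138 bases. A match is a description of the letters, and mature microRNAs were not measured in these libraries.

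**Figure D3:**
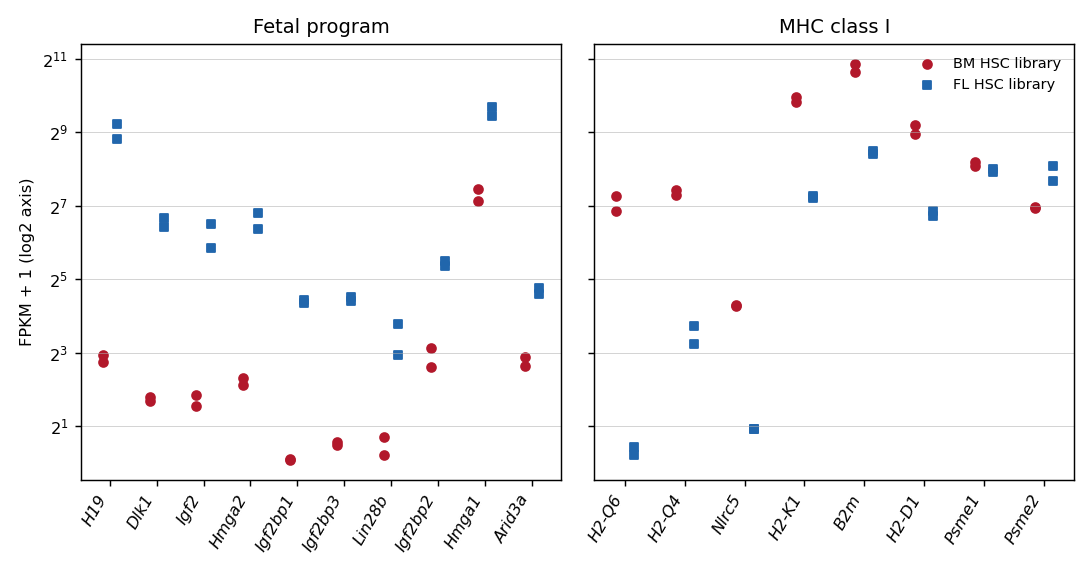
FPKM plus 1 (vertical log2 axis) of 10 genes of the fetal program (left) and 8 genes of MHC class I presentation (right) in each BM HSC library (red circles) and FL HSC library (blue squares). All 10 fetal genes are lower in both BM libraries, 7 class I genes are higher in both, though Psme1 by little (272 and 289 FPKM in BM HSCs and 256 and 239 FPKM in FL HSCs), and Psme2 is lower (124 and 121 FPKM in BM HSCs and 269 and 202 FPKM in FL HSCs).

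These falls differed in where they lay along the 5 populations. Endo had 5365 and 5163 FPKM of H19, HE had 6197 and 5046 FPKM, pre-HSCs had 3606, 3861 and 4110.1 FPKM, FL HSCs had 448 and 602 FPKM and BM HSCs had 6.59 and 5.64 FPKM, so that FL HSCs lay between the embryonic and the adult levels. Igf2 had the same order, since pre-HSCs had 1555, 1625 and 1459 FPKM, FL HSCs had 56.5 and 89 FPKM and BM HSCs had 1.89 and 2.58 FPKM. Hmga2 had another course, since Endo had 83.2 and 105 FPKM, HE had 91.9 and 108 FPKM, pre-HSCs had 117, 119.6 and 95.5 FPKM and FL HSCs had 81.5 and 111 FPKM. These levels overlap, and of the 5 populations only BM HSCs were low. Igf2bp3 was at 31.3, 26.3 and 26.7 FPKM in pre-HSCs and at 21.6 and 20 FPKM in FL HSCs, a small step without overlap next to the near absence in BM HSCs. Of all 581 genes called lower, 290 had their highest mean of the 5 populations in FL HSCs, 117 in HE, 88 in Endo and 86 in pre-HSCs, and 377 had their lowest mean in BM HSCs. Of the 880 called higher, 743 had their highest mean in BM HSCs and 229 stayed under a mean of 1 FPKM in Endo, HE and pre-HSCs. A gene called higher cannot have its highest mean in FL HSCs. A gene called lower cannot be highest in BM HSCs or lowest in FL HSCs. The call thus fixes the counts of highest and lowest means in part, and the shares over all members were not derived.

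**Figure D4:**
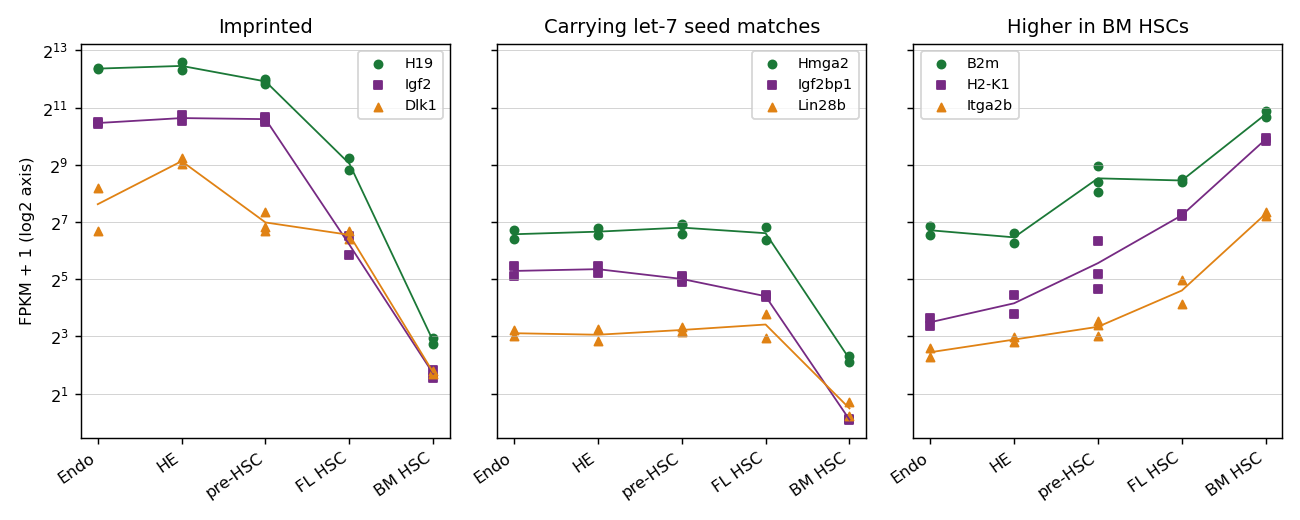
FPKM plus 1 (vertical log2 axis) of 9 genes in Endo, HE, pre-HSCs, FL HSCs and BM HSCs (horizontal axis), with 1 point per library and lines through the means. H19 and Igf2 step down at FL HSCs and again at BM HSCs, Hmga2, Igf2bp1 and Lin28b are low only in BM HSCs, and B2m, H2-K1 and Itga2b are highest there.

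Genes of antigen presentation rose in BM HSCs. MHC class I molecules carry peptides of a cell's own proteins to its surface, where T cells and NK cells read them. Of 26 listed class I genes 25 were members, and 16 were called higher and 0 lower, with a median log2 fold change of 1.79. Of the 19 at or above 1 FPKM in all 4 libraries 12 were called higher. Without either BM library 20 of the 25 members could be fitted, and H2-Q6 and Nlrc5 were not among them. The number called was 11 without FL HSC replicate 1, 13 without FL HSC replicate 2, and 9 without either BM HSC replicate 1 or BM HSC replicate 2. B2m, the light chain of every class I molecule, was at 1615 and 1869 FPKM in BM HSCs, against 359 and 338 FPKM in FL HSCs (log2 fold change 2.31, SE 0.26, adjusted p = 0.000466), and the BM libraries were 5-fold higher in the mean. The heavy chain H2-K1 was at 907 and 989.5 FPKM in BM HSCs, against 153 and 146 FPKM in FL HSCs (log2 fold change 2.66, SE 0.44, adjusted p = 0.00293), and H2-D1 at 499.7 and 586 FPKM in BM HSCs and 115 and 104 FPKM in FL HSCs (2.30). Nlrc5, the transactivator of class I genes, was at 18.3 and 18.6 FPKM in BM HSCs, against 0.882 and 0.87 FPKM in FL HSCs, on both sides with little spread (log2 fold change 3.37, SE 0.23, adjusted p = 2.62e-05). It passed the filter only through the BM libraries. H2-Q6 was at 114 and 153 FPKM in BM HSCs, against 0.352 and 0.15 FPKM in FL HSCs (6.74). H2-Q7 was at 115 and 137 FPKM in BM HSCs, against 0.199 and 0.535 FPKM in FL HSCs (6.54). H2-Q4 was at 171 and 154 FPKM in BM HSCs, against 8.47 and 12.1 FPKM in FL HSCs (3.87). The first pair was thus near 0 in FL HSCs, and all 3 had log2 fold changes above those of the classical heavy chains. These Q genes are near-identical copies on chromosome 17, so that reads may be split between them, and the mixture of H-2 haplotypes in the crosses may differ between libraries, a point that was not tested. Psme1 and Psme2, subunits of the proteasome activator, were not called at 0.18 and -0.92, and the lower values of Psme2 were those of BM HSCs, at 124 and 121 FPKM in BM HSCs, against 269 and 202 FPKM in FL HSCs. B2m and H2-D1 were chosen after their values were seen.

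MHC class II genes, which present outside peptides to helper T cells, moved the same way at lower levels. Of 10 members 6 were called higher and 0 lower, with a median of 1.82 and 5 called of the 9 at or above 1 FPKM in all 4 libraries, and 4 were called without FL HSC replicate 2 and 3 without BM HSC replicate 2. H2-DMa and H2-DMb1, chains of the class II peptide exchanger, were high in both BM libraries. H2-DMa was at 39.4 and 62.1 FPKM in BM HSCs, against 9.9 and 4.66 FPKM in FL HSCs (2.68). H2-DMb1 was at 14.2 and 22.7 FPKM in BM HSCs, against 2.59 and 2.21 FPKM in FL HSCs (2.49). H2-Aa was at 9.14 and 25.7 FPKM in BM HSCs, against 7.68 and 1.02 FPKM in FL HSCs, with spread within both groups, and its call (1.97) was lost without FL HSC replicate 2 (0.92) or BM HSC replicate 2 (1.27) and with quantile normalization. Its change was 3.02 without FL HSC replicate 1 and 2.67 without BM HSC replicate 1. The invariant chain Cd74 was at 15.4 and 41.2 FPKM in BM HSCs, against 15.5 and 3.08 FPKM in FL HSCs. Nkg7, the NK cell marker above, had the same order of libraries as H2-Aa, and its part in the class II values was not tested. The libraries of the groups overlapped for Cd74, and it was called without FL HSC replicate 1 (2.69).

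Interferon response genes rose in part. They encode antiviral proteins and guanylate-binding proteins that cells make on interferon signaling. Of 61 members 24 were called higher and 0 lower, with a median of 0.95, and 53 of 61 changes were positive. Of the 49 at or above 1 FPKM in all 4 libraries 15 were called higher. The count was 14 without FL HSC replicate 1 and 13 without either BM HSC replicate 1 or BM HSC replicate 2, and 1 gene was called lower in the last of these. Gbp2, a guanylate-binding protein, was at 18.4 and 19 FPKM in BM HSCs, against 3.75 and 3.75 FPKM in FL HSCs (log2 fold change 2.05, SE 0.38, adjusted p = 0.00489). Ifi44, an interferon-induced protein, was at 12 and 12 FPKM in BM HSCs and 1.24 and 1.11 FPKM in FL HSCs (2.58). In both genes the libraries of a group agreed closely. The interferon-induced GTPases Tgtp1 and Iigp1 were at 4.58 and 6.31 FPKM in BM HSCs and 0.205 and 0.394 FPKM in FL HSCs (2.30) and at 10.4 and 9.05 FPKM in BM HSCs and 0.229 and 0.764 FPKM in FL HSCs (2.86). They were under 1 FPKM in both FL libraries. Ifitm1, a membrane protein that restricts virus entry, was at 549.7 and 512 FPKM in BM HSCs and 344 and 345 FPKM in FL HSCs. Its relative Ifitm2 was at 507 and 624 FPKM in BM HSCs and 474 and 354 FPKM in FL HSCs, and neither was called. Of 34 members of the toll-like receptor and NF-kB list 6 were called higher and 1, Tnfaip2, lower, and 4 were called higher without FL HSC replicate 1. Casp1, the inflammasome protease, was at 21.2 and 22.3 FPKM in BM HSCs, against 2.8 and 4.34 FPKM in FL HSCs (2.33). Nfkbia, the inhibitor of NF-kB, was at 37.8 and 48.6 FPKM in BM HSCs, against 12.5 and 13.2 FPKM in FL HSCs (1.66). Traf1, a receptor adapter, was at 8.58 and 6.63 FPKM in BM HSCs and 0.875 and 2.28 FPKM in FL HSCs (1.79), while Nfkb1 itself was at 86.9 and 91.2 FPKM in BM HSCs and 68.7 and 63.6 FPKM in FL HSCs and not called.

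Promoters of B2m and Gbp2 are shown because both genes rose and carry the letters of an interferon regulatory factor (IRF) element. They are RefSeq promoters (GRCm38.p6) of 300 bases, ending 50 bases past the start site, at chr2:122147437-122147736, plus strand for B2m and chr3:142620413-142620712, plus strand for Gbp2, with GAAANNGAA, searched on both strands, in capitals.
B2m: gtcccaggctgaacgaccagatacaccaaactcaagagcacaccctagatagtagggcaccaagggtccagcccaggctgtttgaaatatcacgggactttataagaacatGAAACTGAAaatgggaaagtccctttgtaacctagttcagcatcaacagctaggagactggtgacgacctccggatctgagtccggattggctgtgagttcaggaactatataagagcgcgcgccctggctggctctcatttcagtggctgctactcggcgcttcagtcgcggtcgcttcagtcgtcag
Gbp2: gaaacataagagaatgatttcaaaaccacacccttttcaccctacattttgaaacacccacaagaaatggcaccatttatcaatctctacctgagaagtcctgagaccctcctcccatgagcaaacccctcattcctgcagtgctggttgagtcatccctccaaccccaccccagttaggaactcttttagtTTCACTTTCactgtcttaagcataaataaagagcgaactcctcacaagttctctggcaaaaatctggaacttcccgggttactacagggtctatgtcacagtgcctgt
These letters were found in 24 of 46 interferon response genes with a promoter (52.2%), 5 of 20 class I genes (25%), 96 of 669 genes called higher (14.3%) and 32 of 427 called lower (7.49%). The share was 8.56% of 9489 members and 9.76% of all 27025 genes in the promoter table. A promoter was found for 9489 of 12594 members and 46 of 61 interferon response genes, too few for a comparison of these shares, which is void, so that they describe the matched genes alone. A match says nothing of a factor's binding.

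Genes of megakaryocytes and platelets rose. Platelet-primed HSCs sit at the top of the adult hierarchy in mice and express such genes. Of 28 members 14 were called higher and 0 lower, with a median of 1.02, and 12 to 14 were called higher without any 1 of the 4 libraries. Without FL HSC replicate 2 or BM HSC replicate 1, 1 gene was called lower. Itga2b, the integrin chain CD41 of platelets, was at 163 and 147 FPKM in BM HSCs, against 30.1 and 16.5 FPKM in FL HSCs (log2 fold change 2.74, SE 0.27, adjusted p = 0.000209). Its partner Itgb3 was at 25.2 and 25.2 FPKM in BM HSCs, against 5.36 and 3.46 FPKM in FL HSCs (2.30), and both integrin chains were thus well above FL HSCs in each BM library. Sdpr, a caveolar coat protein, was at 50.4 and 42.4 FPKM in BM HSCs, against 3.37 and 4 FPKM in FL HSCs (log2 fold change 3.34, SE 0.18, adjusted p = 5.62e-06). It was low in both FL libraries. Gp1bb, a chain of the von Willebrand factor receptor, was at 23.6 and 20.3 FPKM in BM HSCs and 4.2 and 1.94 FPKM in FL HSCs (2.55). Plek, a protein kinase C substrate of platelets, was at 56.1 and 65.8 FPKM in BM HSCs and 12.1 and 8.09 FPKM in FL HSCs (2.50). Cd9, a tetraspanin, was at 147 and 156 FPKM in BM HSCs and 38.3 and 35 FPKM in FL HSCs (2.02), and all 3 were higher in each BM library. Pf4, a platelet chemokine, was at 579 and 558 FPKM in BM HSCs, against 114 and 35.5 FPKM in FL HSCs, with FL libraries that differed, and the call (3.13, adjusted p = 0.0156) was lost without FL HSC replicate 2 (2.31, adjusted p = 0.0745), BM HSC replicate 1 (adjusted p = 0.0721) or BM HSC replicate 2 (adjusted p = 0.0591), and the change was 3.96 without FL HSC replicate 1. Vwf, the ligand of platelets and a mark of platelet-primed HSCs, was at 55.9 and 44.3 FPKM in BM HSCs, against 12.1 and 15 FPKM in FL HSCs (1.81), and its call was lost without FL HSC replicate 1 (1.67, adjusted p = 0.0932) or BM HSC replicate 1 (1.65, adjusted p = 0.0862). Gfi1b, a transcriptional repressor, was at 72.2 and 153 FPKM in BM HSCs, against 119 and 72.8 FPKM in FL HSCs and overlapped.

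Of 63 member genes known from adult HSCs 18 were called higher and 2 lower, with a median of 0.69. The median was 0.48 without FL HSC replicate 1 and 0.77 without FL HSC replicate 2. It was 0.52 without BM HSC replicate 1 and 0.68 without BM HSC replicate 2. Egr1 and Junb, called higher here, are also among the immediate early genes called below. The change of Egr1 was 2.08 without BM HSC replicate 1 and 5.355 without BM HSC replicate 2. Of the 55 at or above 1 FPKM in all 4 libraries 13 were called higher and 2 lower. Angpt1, a ligand of Tie2 that HSCs secrete, was at 153 and 145 FPKM in BM HSCs, against 22.3 and 38.4 FPKM in FL HSCs (log2 fold change 2.31, SE 0.27, adjusted p = 0.000524). Itga6, a laminin receptor chain, was at 75 and 80 FPKM in BM HSCs, against 25 and 32 FPKM in FL HSCs (1.42). Gata2, a transcription factor of HSC maintenance, was at 168 and 181 FPKM in BM HSCs, against 76.4 and 66.5 FPKM in FL HSCs (log2 fold change 1.28, SE 0.14, adjusted p = 0.000407), and its libraries agreed within each group. Alcam, an adhesion molecule, was at 23.2 and 8.74 FPKM in BM HSCs, against 0.228 and 0.667 FPKM in FL HSCs (3.42), which was 2.77 without BM HSC replicate 1 and 4.08 without BM HSC replicate 2. Sult1a1, a sulfotransferase, was at 14.8 and 15 FPKM in BM HSCs, against 0.414 and 0.122 FPKM in FL HSCs (3.66), under 1 FPKM in both FL libraries. Aldh1a1, which oxidizes retinal and is known as an enzyme of adult HSCs, was close to 0 in FL HSCs, with 29.8 and 52 FPKM in BM HSCs, against 0.0244 and 0.258 FPKM in FL HSCs (log2 fold change 5.15, SE 0.27, adjusted p = 5.35e-06). Gfi1, a transcriptional repressor that holds HSCs quiescent, went the other way at 10.4 and 3.53 FPKM in BM HSCs, against 45.2 and 69.4 FPKM in FL HSCs (log2 fold change -2.99, SE 0.49, adjusted p = 0.00283), a change of -3.66 without BM HSC replicate 1 and -2.33 without BM HSC replicate 2. Lmo2, a scaffold of HSC transcription factors, was at 708 and 707 FPKM in BM HSCs and 336 and 399 FPKM in FL HSCs. Gpr56, an adhesion receptor, was at 512 and 652 FPKM in BM HSCs and 336 and 326 FPKM in FL HSCs. Both were below the 2-fold limit with each BM library above each FL library, and both passed it with quantile normalization (1.18 and 1.04). Itga6, Meis1, Vwf and the uncalled HSC genes above were chosen after their values were seen, apart from those the sort uses.

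Immediate early genes, which cells transcribe within minutes of a stimulus or of handling, rose with a strong imbalance between the BM libraries. Of 26 members 8 were called higher and 0 lower, with a median of 1.03. The count was 4 without FL HSC replicate 1, 5 without FL HSC replicate 2, 6 without BM HSC replicate 1 and 16 without BM HSC replicate 2. Fos was at 389.7 and 36 FPKM in BM HSCs, against 0.213 and 0.741 FPKM in FL HSCs. BM HSC replicate 1 was far above replicate 2, and both were above FL HSCs (log2 fold change 6.37, SE 0.85, adjusted p = 0.00103), with 4.67 without BM HSC replicate 1 and 8.07 without BM HSC replicate 2. Jun was at 558 and 103 FPKM in BM HSCs, against 5.8 and 7.5 FPKM in FL HSCs (4.99, and 3.77 without BM HSC replicate 1 and 6.20 without BM HSC replicate 2). BM HSC replicate 1 was again the highest library. Dusp1, a phosphatase of the same response, was at 285 and 34.6 FPKM in BM HSCs, against 7.81 and 9 FPKM in FL HSCs. Its call (3.42) was lost without FL HSC replicate 1 (adjusted p = 0.0544) and, by the F test, without FL HSC replicate 2, and its change was 1.92 without BM HSC replicate 1 and 4.93 without BM HSC replicate 2. Zfp36, which destabilizes mRNAs, was at 143 and 27.7 FPKM in BM HSCs, against 9.23 and 11.4 FPKM in FL HSCs, and its call (2.51) was lost without FL HSC replicate 1 (adjusted p = 0.103) or BM HSC replicate 1 (1.35), with 3.67 without BM HSC replicate 2. Myc was at 119 and 123 FPKM in BM HSCs, against 144 and 121 FPKM in FL HSCs and did not pass the test (-0.12). Of 17 heat shock genes 3 were called higher and 2 lower. The inducible Hspa1b was at 28.6 and 23.5 FPKM in BM HSCs, against 0.853 and 1.06 FPKM in FL HSCs (log2 fold change 3.79, SE 0.34, adjusted p = 0.000137). Hspa1a was at 10.5 and 5.33 FPKM in BM HSCs and 0.541 and 0.308 FPKM in FL HSCs (2.59), and the pair are near-identical copies whose reads may be split. The mitochondrial chaperone Hspd1 was at 172 and 187 FPKM in BM HSCs and 360.1 and 442 FPKM in FL HSCs (-1.15). Its partner Hspe1 was at 212 and 213 FPKM in BM HSCs and 605 and 428 FPKM in FL HSCs (-1.26). Both fell, and both were under the limit with quantile normalization, at -0.90 and -0.99. Bead enrichment was stated for BM HSCs and not for FL HSCs, and preparation and stage cannot be told apart.

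Genes of mitosis fell together. Of 51 members, all at or above 1 FPKM in all 4 libraries, 21 were called lower and 0 higher, with a median of -0.88 and 46 negative values, and 16 to 24 were called without any 1 of the 4 libraries. Plk1, the kinase that drives entry into mitosis, was at 15.7 and 13.2 FPKM in BM HSCs, against 80.8 and 50.2 FPKM in FL HSCs (log2 fold change -2.07, SE 0.22, adjusted p = 0.000296), and the means differed 4.53-fold. Ccnb1, the mitotic cyclin B1, was at 20.6 and 16.2 FPKM in BM HSCs, against 65.5 and 61.8 FPKM in FL HSCs (log2 fold change -1.75, SE 0.14, adjusted p = 7.54e-05). Both BM libraries were low and close to each other. Aurka, a spindle kinase, was at 18.9 and 13.2 FPKM in BM HSCs and 72.5 and 49.9 FPKM in FL HSCs (-1.86). Birc5, a subunit of the chromosomal passenger complex, was at 44.3 and 25.9 FPKM in BM HSCs and 138 and 98.1 FPKM in FL HSCs (-1.75). Ube2c, a ubiquitin-conjugating enzyme of mitotic exit, was at 57.4 and 40 FPKM in BM HSCs and 229 and 144 FPKM in FL HSCs (-1.90). Cdc20, an activator of the ligase it serves, was at 57.8 and 48.7 FPKM in BM HSCs and 164 and 121 FPKM in FL HSCs (-1.39). Cdk1, at 91 and 67.1 FPKM in BM HSCs, against 197 and 126 FPKM in FL HSCs, was at the 2-fold limit (-1.0) and not called, and it was called without FL HSC replicate 2 (-1.32) and without BM HSC replicate 1 (-1.22). Mki67, often used as a mark of dividing cells, was at 42.4 and 24.9 FPKM in BM HSCs, against 26.6 and 40.3 FPKM in FL HSCs and the groups overlapped (-0.01). Top2a, a topoisomerase of dividing cells, was at 85.6 and 70.5 FPKM in BM HSCs and 92.7 and 137 FPKM in FL HSCs and was not called (-0.53). Cdc20 and Mki67 were chosen after their values were seen.

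Promoters of Plk1 and Cdc20 are shown because mitotic genes share 2 elements near their start sites, the CCAAT box and the cell cycle homology region (CHR, TTTGAA). Both are RefSeq promoters as above, at chr7:122159185-122159484, plus strand for Plk1 and chr4:118437294-118437593, minus strand for Cdc20, with CCAAT and TTTGAA, searched on both strands and not contained in each other, in capitals.
Plk1: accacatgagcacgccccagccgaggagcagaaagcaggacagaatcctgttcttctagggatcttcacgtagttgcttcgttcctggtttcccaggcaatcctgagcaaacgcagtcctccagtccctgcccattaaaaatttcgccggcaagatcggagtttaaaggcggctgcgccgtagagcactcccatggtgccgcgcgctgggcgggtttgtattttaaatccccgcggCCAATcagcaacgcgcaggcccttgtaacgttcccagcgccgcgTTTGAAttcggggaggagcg
Cdc20: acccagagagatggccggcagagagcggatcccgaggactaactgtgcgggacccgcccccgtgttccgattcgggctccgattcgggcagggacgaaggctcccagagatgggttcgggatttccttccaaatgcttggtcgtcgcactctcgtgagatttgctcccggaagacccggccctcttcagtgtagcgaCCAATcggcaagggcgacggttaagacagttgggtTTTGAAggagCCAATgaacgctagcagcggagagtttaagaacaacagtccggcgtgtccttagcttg
TTTGAA was found in 32 of 43 mitotic genes with a promoter (74.4%) and CCAAT in 33 (76.7%). Among all 9489 members with a promoter the shares were 14.4% and 43.2%, among 427 genes called lower 21.3% and 46.1%, and among 669 called higher 16.6% and 40.4%. In the whole promoter table they were 20.2% and 41.1%. As above, the shares over members and called genes describe the matched genes alone.

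DNA replication genes were lower by a smaller amount. Of 44 members 7 were called lower and 0 higher, with a median of -0.62 and 42 negative values, and 4 were called without FL HSC replicate 1 and 12 without FL HSC replicate 2. Rrm2, a subunit of ribonucleotide reductase, was at 28.8 and 26.9 FPKM in BM HSCs, against 88.6 and 75.7 FPKM in FL HSCs (log2 fold change -1.52, SE 0.14, adjusted p = 0.000123). Cdc6, which loads the helicase on origins, was at 13.5 and 13.2 FPKM in BM HSCs and 38 and 34.7 FPKM in FL HSCs (-1.38). The libraries agreed closely within each group. Mcm10, a replication fork protein, was at 13.3 and 13.3 FPKM in BM HSCs and 32.3 and 31.4 FPKM in FL HSCs (-1.20). Fen1, a flap endonuclease, was at 60.9 and 65 FPKM in BM HSCs and 186 and 128 FPKM in FL HSCs (-1.28). Pcna, the sliding clamp, was nearly level at 383 and 384 FPKM in BM HSCs, against 480.1 and 414 FPKM in FL HSCs (-0.22) and was not called. Among regulators of G1 the directions were mixed, with 4 of 35 members called higher and 3 lower, and 1 lower without FL HSC replicate 1 or BM HSC replicate 1. The number called higher was 6 without BM HSC replicate 2. Cdkn2c, an inhibitor of Cdk4 and Cdk6, was at 15.2 and 11.6 FPKM in BM HSCs, against 2.63 and 2.11 FPKM in FL HSCs (log2 fold change 2.09, SE 0.34, adjusted p = 0.00265). Txnip, a glucose-responsive arrestin-like protein, was at 350.00 and 384 FPKM in BM HSCs, against 154 and 168 FPKM in FL HSCs (log2 fold change 1.18, SE 0.13, adjusted p = 0.000435). Rbl2, the pocket protein p130 of quiescent cells, was at 27.1 and 29.9 FPKM in BM HSCs, against 8.68 and 11.8 FPKM in FL HSCs (1.40), a call lost without FL HSC replicate 1 (1.20, adjusted p = 0.0534). Ccne1, the cyclin of S phase entry, was lower at 4.23 and 11.3 FPKM in BM HSCs, against 46.3 and 31.1 FPKM in FL HSCs (-2.28), and its change was -1.66 without BM HSC replicate 1 and -2.90 without BM HSC replicate 2.

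**Figure D5:**
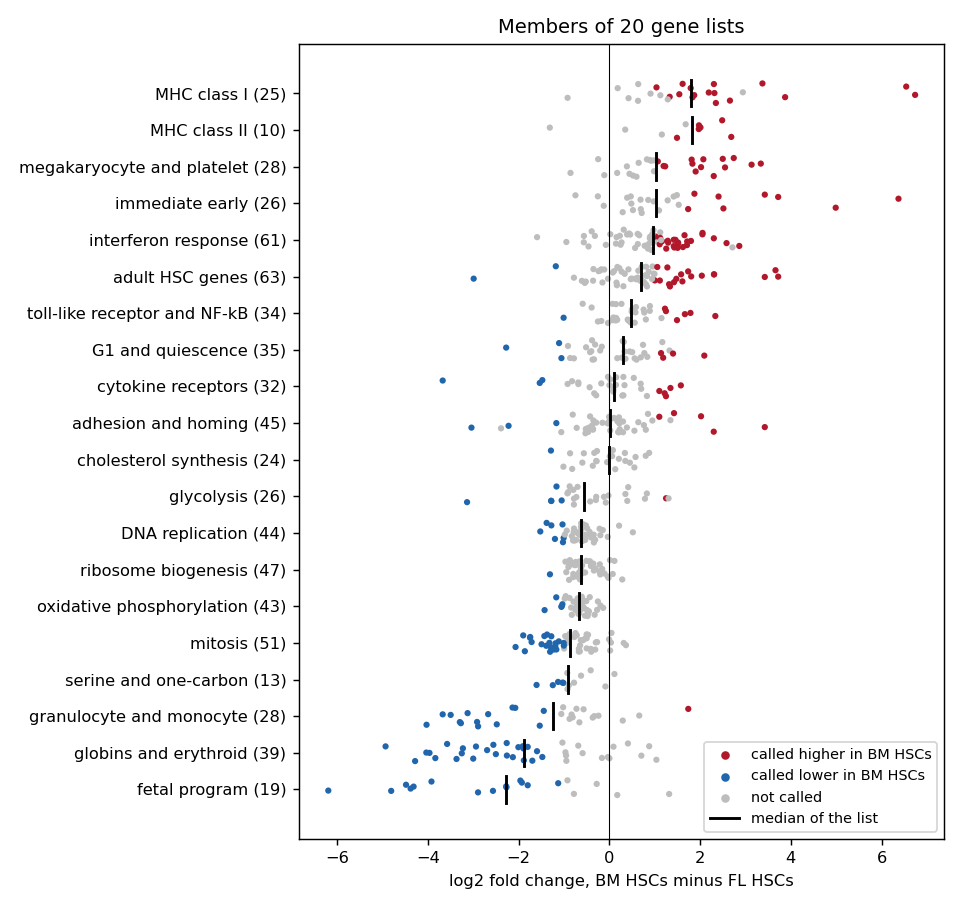
Log2 fold change of BM HSCs minus FL HSCs (horizontal axis) for the member genes of 20 gene lists, with 1 point per gene, the number of members in parentheses and a black line at the median. Points called higher in BM HSCs are red, called lower blue and uncalled gray, and medians run from 1.82 for MHC class II genes to -2.27 for the fetal program.

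Most members of the lists of oxidative phosphorylation, ribosome biogenesis and one-carbon metabolism had negative log2 fold changes, and few passed the test. All 43 members of oxidative phosphorylation had a negative log2 fold change, with a median of -0.67 (-0.55 with FPKM scaled to equal totals), and 5 were called lower. Without FL HSC replicate 1 the median was -0.42 with 42 negative values. The count of calls was 1 without FL HSC replicate 1, 18 without FL HSC replicate 2 and 3 without BM HSC replicate 1. Ndufab1, an acyl carrier protein of complex I, was at 62.3 and 41.3 FPKM in BM HSCs, against 164 and 117 FPKM in FL HSCs (log2 fold change -1.43, SE 0.25, adjusted p = 0.00379). Atp5b, the catalytic subunit of ATP synthase, was at 1109.8 and 1309 FPKM in BM HSCs, against 2841 and 1948 FPKM in FL HSCs and was not called (-0.96), though it was without FL HSC replicate 2 (-1.24). Of 47 members of ribosome biogenesis 43 were negative, with a median of -0.63, and 1 was called, Rrp9, a protein of box C/D snoRNPs, at 43.9 and 38.1 FPKM in BM HSCs, against 123 and 86.5 FPKM in FL HSCs (log2 fold change -1.31, SE 0.21, adjusted p = 0.00222). The list had 2 called without FL HSC replicate 1, 8 without FL HSC replicate 2 and 5 without BM HSC replicate 2. The nucleolar protein Npm1 was at 979 and 932 FPKM in BM HSCs, against 1294 and 1635 FPKM in FL HSCs (-0.61). Of 22 members of nucleotide synthesis 0 were called, with a median of -0.53, and the purine enzyme Paics was at 194 and 216 FPKM in BM HSCs and 259.7 and 265 FPKM in FL HSCs. Serine and one-carbon enzymes had 5 of 13 members called lower, a median of -0.92, and 1, 9, 2 and 7 called without FL HSC replicate 1, FL HSC replicate 2, BM HSC replicate 1 and BM HSC replicate 2. Mthfd2, the mitochondrial folate enzyme of growing cells, was at 10.3 and 8.61 FPKM in BM HSCs, against 30.4 and 31 FPKM in FL HSCs (log2 fold change -1.61, SE 0.16, adjusted p = 0.000201).

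Glycolysis held a few larger changes. Of 26 members 5 were called lower and 1 higher, with a median of -0.56, and 8 were called lower without FL HSC replicate 2. Slc16a3, the lactate exporter MCT4, was at 4.15 and 7.07 FPKM in BM HSCs, against 58.5 and 53.2 FPKM in FL HSCs (log2 fold change -3.14, SE 0.28, adjusted p = 0.000123), with 9.95-fold lower means in BM HSCs. Slc2a1, the glucose transporter GLUT1, was at 19.4 and 18 FPKM in BM HSCs and 44.9 and 41.5 FPKM in FL HSCs (-1.17). Both transporters were lower in each BM library. Eno1, enolase, was at 127 and 149.9 FPKM in BM HSCs and 399.6 and 286 FPKM in FL HSCs (-1.28). Pgam1, phosphoglycerate mutase, was at 41.7 and 53 FPKM in BM HSCs and 134 and 99.6 FPKM in FL HSCs (-1.28). Aldoc, an aldolase, was higher at 8.21 and 11.3 FPKM in BM HSCs and 2.61 and 4.54 FPKM in FL HSCs (1.25), and its call was lost without FL HSC replicate 1 (0.94) or BM HSC replicate 2 (1.04). Ldha was at 805 and 1029 FPKM in BM HSCs, against 2131 and 1404 FPKM in FL HSCs (-0.93) and was called without FL HSC replicate 2 (-1.23). Of 24 members of cholesterol and lipid synthesis 1 was called, Scd2, a desaturase, at 60 and 83.8 FPKM in BM HSCs and 162 and 188 FPKM in FL HSCs (-1.29, and -1.05 and, by the F test, not called without BM HSC replicate 1), with a median of -0.02. Srebf2, the regulator of cholesterol synthesis, was at 69.7 and 89.7 FPKM in BM HSCs and 74.5 and 75.5 FPKM in FL HSCs. Of 30 antioxidant and hypoxia genes 1, Aldh1a1, was called higher and 2 lower, and 5 lower without FL HSC replicate 2. Among them was Gpx3, a secreted glutathione peroxidase, at 1.19 and 1.37 FPKM in BM HSCs, against 16.4 and 5.89 FPKM in FL HSCs (-2.26, and -1.60 without FL HSC replicate 1 and -2.93 without FL HSC replicate 2).

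Erythroid and granulocyte genes were lower in BM HSCs. Of 39 erythroid members 25 were called lower and 0 higher, with a median of -1.89, and 21 to 27 were called lower without any 1 of the 4 libraries. Of the 26 at or above 1 FPKM in all 4 libraries 14 were called lower. The macrophage sum was high in both FL libraries. The hepatocyte sum without Dlk1 was high in FL HSC replicate 1 and slightly above BM HSCs in replicate 2. The part of both cell types in these falls was not tested. Without BM HSC replicate 1, 2 genes of the list were called higher, and with quantile normalization also 2. Klf1, the erythroid master factor, was at 5.71 and 11 FPKM in BM HSCs, against 107 and 66.6 FPKM in FL HSCs (log2 fold change -3.25, SE 0.40, adjusted p = 0.000655). Epor, the erythropoietin receptor, was at 15 and 19.4 FPKM in BM HSCs, against 52.7 and 46.2 FPKM in FL HSCs (log2 fold change -1.48, SE 0.25, adjusted p = 0.00306). Cited4, a transcriptional coactivator, was at 3.97 and 3.61 FPKM in BM HSCs and 84.5 and 53.8 FPKM in FL HSCs (-3.84). The globin Hbb-b2 was at 2.01 and 3.28 FPKM in BM HSCs, against 76.6 and 61.8 FPKM in FL HSCs (-4.28). Hba-a1 was at 0 and 0.195 FPKM in BM HSCs, against 68.7 and 15 FPKM in FL HSCs (-4.93, and -3.87 without FL HSC replicate 1 and -6.00 without FL HSC replicate 2). The embryonic globin Hbb-y was at 0 and 0.172 FPKM in BM HSCs, against 46 and 5.71 FPKM in FL HSCs, with most of it in FL HSC replicate 1 (-4.04, with -2.63 without that library and -5.44 without the other). Globin genes have near-identical copies, and their reads may be split. Car2, a carbonic anhydrase, was at 409 and 569 FPKM in BM HSCs and 264 and 260.5 FPKM in FL HSCs. Nfe2, a factor of erythroid cells and megakaryocytes, was at 204 and 249 FPKM in BM HSCs and 146 and 130.4 FPKM in FL HSCs. Both were higher in each BM library and under the 2-fold limit, which they passed with quantile normalization (1.16 and 1.06).

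Of 28 granulocyte and monocyte members 14 were called lower and 1 higher, with a median of -1.25. Of the 19 at or above 1 FPKM in all 4 libraries 7 were called lower. Without FL HSC replicate 1, the library with the high macrophage markers, 25 members could be fitted, with a median of -0.94. Without FL HSC replicate 2 the median was -1.21, also over 25 members. It was -1.32 without BM HSC replicate 1 and -1.26 without BM HSC replicate 2. The part of macrophages in these falls was not tested. Mpo, the peroxidase of neutrophil granules, was at 10.6 and 8.89 FPKM in BM HSCs, against 189.9 and 160.02 FPKM in FL HSCs (log2 fold change -4.03, SE 0.21, adjusted p = 5.35e-06). The granule protease Ctsg was at 1.84 and 0.934 FPKM in BM HSCs, against 27 and 24.1 FPKM in FL HSCs (-3.50). Elane, neutrophil elastase, was at 8.81 and 1.99 FPKM in BM HSCs, against 48.3 and 44.4 FPKM in FL HSCs (-3.13). All 3 were high in both FL libraries. The change of Elane was -3.98 without BM HSC replicate 1 and -2.27 without BM HSC replicate 2. S100a9, an alarmin, was at 8.28 and 2.48 FPKM in BM HSCs, against 67.2 and 44.8 FPKM in FL HSCs (-3.30, and -4.01 without BM HSC replicate 1 and -2.59 without BM HSC replicate 2). Csf1r, the receptor of the macrophage growth factor, was at 0.136 and 0.0674 FPKM in BM HSCs, against 33.2 and 4.79 FPKM in FL HSCs, and its call (-3.67) was lost without FL HSC replicate 1 (-2.39, adjusted p = 0.103) and without either BM library (adjusted p = 0.0626 and 0.0576). Lyz2, a lysozyme of myeloid cells, was at 101 and 127 FPKM in BM HSCs, against 121 and 70.5 FPKM in FL HSCs and overlapped. Of 17 lymphoid members 1 was called higher and 3 lower, with a median of -0.43. Lat, an adapter of T cells and platelets, was at 48.8 and 46.5 FPKM in BM HSCs, against 12.7 and 9.16 FPKM in FL HSCs (log2 fold change 2.04, SE 0.21, adjusted p = 0.00028). Satb1, a chromatin organizer of lymphoid progenitors, was at 3.47 and 3.15 FPKM in BM HSCs, against 10.2 and 14.8 FPKM in FL HSCs (-1.63). Id2, an inhibitor of E proteins, was at 1.88 and 1.85 FPKM in BM HSCs, against 15.1 and 6 FPKM in FL HSCs (-1.89, and -1.29 without FL HSC replicate 1 and -2.49 without FL HSC replicate 2). Klf1 and Elane were chosen after their values were seen.

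Other groups held few called genes. Of 32 cytokine receptors 5 were called higher and 3 lower. Il27ra, a receptor chain of interleukin 27, was at 21.4 and 21.8 FPKM in BM HSCs, against 6.65 and 9.38 FPKM in FL HSCs (log2 fold change 1.34, SE 0.25, adjusted p = 0.00508). Of 45 adhesion genes 5 were called higher and 3 lower, with a median of 0.02. Of 34 chromatin regulators 1 was called higher and 2 lower. Dnmt3b, a de novo DNA methyltransferase, was at 40.7 and 34.1 FPKM in BM HSCs, against 94.2 and 99.3 FPKM in FL HSCs (log2 fold change -1.35, SE 0.17, adjusted p = 0.000818). Dnmt3a was at 26.5 and 36.9 FPKM in BM HSCs, against 67.1 and 77.1 FPKM in FL HSCs (-1.18), a call lost by the F test without FL HSC replicate 2 and by the fold without BM HSC replicate 1 (-0.95). The maintenance enzyme Dnmt1 was at 94.3 and 98.2 FPKM in BM HSCs and 143 and 129.5 FPKM in FL HSCs and was not called. Of 23 apoptosis genes 3 were called higher and 1 lower. Bcl2, which protects cells from death, was at 15.9 and 15.6 FPKM in BM HSCs, against 2.54 and 4.27 FPKM in FL HSCs (log2 fold change 1.96, SE 0.29, adjusted p = 0.00178). Bok, a relative that promotes death, was lower at 3.11 and 4.03 FPKM in BM HSCs, against 11.6 and 9.4 FPKM in FL HSCs (log2 fold change -1.33, SE 0.19, adjusted p = 0.00156). Of 23 ABC transporters 4 were called higher, but 1 of the 20 at or above 1 FPKM in all 4 libraries. Abcb1b, a drug efflux pump, was at 7.52 and 8.52 FPKM in BM HSCs, against 0.423 and 0.655 FPKM in FL HSCs (log2 fold change 2.55, SE 0.24, adjusted p = 0.000169). Its near copy Abcb1a was at 1.57 and 2 FPKM in BM HSCs and was listed at 0 in both FL libraries. Of 30 PI3K and FoxO genes 3 were called higher, and 5 without FL HSC replicate 2 and 1 without FL HSC replicate 1 or BM HSC replicate 2. Among them was Prkaa2, a catalytic subunit of the energy sensor AMPK, at 1.96 and 1.4 FPKM in BM HSCs, against 0.148 and 0.0219 FPKM in FL HSCs (1.30), and it passed the filter only through the BM libraries. Of 21 Notch and Wnt genes 1 was called lower, the Wnt inhibitor Dkk1, at 0.0553 and 0 FPKM in BM HSCs and 1.6 and 1.95 FPKM in FL HSCs, a call lost by the F test without FL HSC replicate 2 or either BM library. Of 8 Gimap GTPases of lymphocytes 1 was called lower, Gimap4, at 3.65 and 2.23 FPKM in BM HSCs and 8.99 and 9.32 FPKM in FL HSCs (-1.39). Of 32 lysosome genes 1 was called higher, the calcium channel Mcoln1, at 43.7 and 28.6 FPKM in BM HSCs and 19.8 and 12.8 FPKM in FL HSCs, a call lost without FL HSC replicate 2 or BM HSC replicate 1.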

How the data were processed

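RNA of 11 libraries was poly(A)-selected and sequenced. The expression table holds FPKM, which the authors made from reads aligned to mm9 with TopHat and annotated with Ensembl. The submitters' processing notes name Cufflinks, Subread, featureCounts and edgeR, without saying which of them gave the FPKM. The study's own test used read counts, while the values here are FPKM, so that limma was used in its place. FPKM were taken as log2(FPKM + 1). Genes with at least 1 FPKM in at least 2 of the 11 libraries (14708) were fitted with limma 3.58.1 in R 4.3.3 (population as factor, empirical Bayes with trend, Benjamini-Hochberg adjustment over all fitted genes), with the call rule given above. Genes were named by rule: the sort markers, the 15 largest changes in each direction at 10 FPKM or more without overlap, and in each list up to 5 called genes and up to 2 uncalled ones of the highest level. The members, lists and tests were chosen with earlier results of these data known. Alternatives covered the pseudocount, filter, scaling, thresholds, replicate block, libraries in the fit and each library left out. Gene coordinates and 3′UTRs come from GENCODE M1 on mm9 (37038 of the 37820 identifiers), and promoters and microRNAs from RefSeq (GRCm38.p6). Scripts were tested on simulated data. Total reads per library were not derived from FPKM, so no counting interval is given. Some genes of the lists were not analysed or are not reported here.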

Additional observations from a re-analysis of the deposited data

How the results depend on the processing

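Of 24 other settings the fit of the 4 libraries alone called 0 genes, with 0 higher and 0 lower in BM HSCs, and 929 higher and 620 lower past a 2-fold change and an unadjusted p of 0.05. With no fold limit 2800 genes were called, 1426 higher and 1374 lower. Leaving out 1 library at a time gave 963 to 1963 calls, 584 to 1181 higher and 346 to 782 lower. The low total was that without FL HSC replicate 1 and the high total that without FL HSC replicate 2. The remaining settings stayed within 1.5 times of the 1461 calls. Whether the replicate numbers pair the libraries is not stated. Over genes, the difference of replicate 1 and 2 in BM HSCs correlated at -0.155 with that in FL HSCs. With 1 such difference per group this value cannot decide it. With the replicate number as a block 1422 genes were called, and with the crossed pairing, chosen after seeing the data, 1513. Of 255 named or rule-chosen genes 169 were called, and 121 of these kept the call in every fit without 1 library that held the gene. Genes left above 1 FPKM in a single library, such as H2-Q6 without either BM library, could not be fitted there. No gene changed sign among those called. With 2 libraries a group, pooled animals and unknown depth, p-values cover the spread between these libraries only, and an FPKM listed at 0 may be a low or a failed estimate.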

Other observations

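Several of the largest changes lay outside the gene groups above, among genes of at least 10 FPKM in the higher group whose libraries did not overlap. Rgs1, which dampens signaling of G protein-coupled receptors, was at 92 and 52.2 FPKM in BM HSCs, against 0.343 and 0.653 FPKM in FL HSCs (log2 fold change 5.56, SE 0.53, adjusted p = 0.000184). Ltbp3, a binding protein of latent TGF-beta, was at 28 and 24.8 FPKM in BM HSCs, against 0.435 and 0.624 FPKM in FL HSCs (log2 fold change 4.16, SE 0.19, adjusted p = 1.89e-06). Both were under 1 FPKM in each FL library. Sdsl, a serine dehydratase-like enzyme, was at 87.7 and 96.3 FPKM in BM HSCs, against 2.13 and 0.564 FPKM in FL HSCs (5.39). Cpne2, a copine that binds membranes in response to calcium, was at 88.3 and 101 FPKM in BM HSCs, against 5.15 and 3.22 FPKM in FL HSCs (4.23). Phactr1, an actin and phosphatase regulator, was at 30.6 and 123 FPKM in BM HSCs, against 0.549 and 0.596 FPKM in FL HSCs (5.31), with BM libraries that differed, so that the change was 6.30 without BM HSC replicate 1 and 4.33 without BM HSC replicate 2.

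Among the largest falls, Lgals1, a galectin secreted by many cells, was at 24 and 29.7 FPKM in BM HSCs, against 738 and 463 FPKM in FL HSCs (log2 fold change -4.40, SE 0.39, adjusted p = 0.000116). Cnn3, a calponin that binds actin, was at 1.14 and 1.31 FPKM in BM HSCs, against 56.7 and 55.9 FPKM in FL HSCs (log2 fold change -4.69, SE 0.11, adjusted p = 3.47e-08), with libraries that agreed within each group. Mt2, a metallothionein that the fetal liver is known to make in quantity, was at 3.58 and 7.91 FPKM in BM HSCs, against 215 and 136 FPKM in FL HSCs (-4.75). Stfa1, a cysteine protease inhibitor of myeloid cells with near-identical copies, was at 0 and 0.126 FPKM in BM HSCs, against 59.1 and 30.7 FPKM in FL HSCs (-5.36). Prg2, the major basic protein of eosinophils, was at 0.166 and 0.2 FPKM in BM HSCs, against 49.4 and 13.9 FPKM in FL HSCs (-4.53), and FL HSC replicate 1 was the higher library, as it was for the macrophage markers. The short noncoding RNA Snora31 was at 361 and 98.3 FPKM in BM HSCs and listed at 0 in both FL libraries, while Snora7a was listed at 0 in both BM libraries and was at 74.5 and 103 FPKM in FL HSCs. The libraries were poly(A)-selected, which small nucleolar RNAs mostly lack.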
